A study of Rattus norvegicus with 196 samples.

Results

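The 38 transcripts described here encode subunits of the mitochondrial respiratory chain, factors that help to assemble its first complex, and parts of the machinery that carries proteins into mitochondria. They were selected by gene symbol from 1845 named transcripts on the study's own list of transcripts called different between fluoxetine-treated and control rats in more than 1 brain region, and the deposited files count reads on 29188 transcripts in all. The selection therefore used the comparison of treated with control rats, so every value of that comparison given here is a description and carries no test. It holds 13 subunits of complex I, 3 complex I assembly factors, 2 subunits of complex II, 4 of complex III, 4 of complex IV, 6 of the ATP synthase and 6 import components. Ndufa4, which carries a complex I name, was placed with complex IV, of which it is now regarded as a subunit.

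RNA from frozen brain punches was sequenced in 196 libraries of 25 brain regions. The 98 FT libraries came from male Long-Evans rats (Charles River) that were 2 months old when put into groups. They drank fluoxetine, a serotonin reuptake inhibitor, at 18 mg/kg body weight per day for 6 weeks. The 98 Sham libraries came from rats of the same kind given water. Each library pooled punches from 10 animals of its group, so differences between single animals cannot be seen. By the study's animal numbers, the regions of a replicate number and group came from the same 10 animals. Replicates carry the numbers 1, 3, 4 and 5, and the FT and Sham libraries of a number were processed side by side, which makes them pairs. Arc, the arcuate nucleus, has Sham libraries of replicates 4 and 5 alone, and mPoA, the medial preoptic area, has FT libraries of replicates 4 and 5 alone.

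Between 4586 and 50893913 reads per library fell on transcripts. The Sham library of replicate 3 from Nts, the nucleus of the solitary tract, held the fewest, and its pair was left out, as was the CGC (cingulate cortex) pair of replicate 1, whose FT library had 83.3% of its reads on 50 transcripts. The Sham ILC (infralimbic cortex) libraries of replicates 1 and 3 also stood apart, with 82.9% and 85.8% of reads on 50 transcripts, and ILC results are given with and without them. Region labels were checked with 9 marker genes, which leaves most of the 25 labels unchecked. Slc6a3, the dopamine transporter, had its highest mean in VTA, the ventral tegmental area, Adora2a, a receptor of striatal neurons, had its highest in NAcC, the core of the nucleus accumbens, and Slc17a6, a glutamate transporter of thalamic neurons, had its highest in MDT, the dorsomedial thalamus, followed by PVN. The study's region list gives PVN as the paraventricular nucleus of the thalamus, and the sample labels give the letters alone. Avp and Oxt, the neurohypophysial peptides of the hypothalamus, averaged 1542 and 1873 CPM in VMH, the ventromedial hypothalamus, and 1104 and 1777 CPM in Arc, their highest regions. CPM are read counts scaled to library sizes that were adjusted by TMM, so they are not plain shares of reads. Against the labels, Neurod1, a gene of dentate granule cells, averaged 124 CPM in PAG, the periaqueductal gray, and 48.6 CPM in dorDG, the dorsal dentate gyrus, and Hcrt averaged 371 CPM in VMH and 131 CPM in LH, the lateral hypothalamus.

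The respiratory chain passes electrons from NADH and succinate to oxygen and pumps protons across the inner mitochondrial membrane, and the ATP synthase uses the returning protons to make ATP. Complexes I, III, IV and the ATP synthase combine subunits encoded in the nucleus with a few encoded in mitochondrial DNA, while complex II is encoded in the nucleus alone. Nuclear-encoded subunits enter through the TOM complex of the outer membrane and the TIM complexes of the inner membrane. Neurons draw most of their ATP from this chain. In bulk tissue, fewer cells of a type and less RNA per cell cannot be told apart, so a level here is a relative amount in the RNA of a whole punch.

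Since the members were followed as a set, the DNA upstream of their genes is shown for 4 of them: Uqcrq, whose FT to Sham ratio was the highest of the set, Uqcrc2, whose ratio was the lowest, Atp5i, whose window was the only member window with all 3 motifs searched, and Timmdc1, which had the most copies of the GABP motif. RefSeq windows of the rat genome build GRCr8, running from 250 bases before to 50 bases after the gene start and written 5′ to 3′ on the gene's strand, could be matched for 34 of the 38 members by symbol or by a single synonym. Capitals mark matches, on either strand, to GCGCATGC (the core of the NRF1 motif), CCGGAAG (GABP) or AAGATGGC (YY1), named for nuclear factors known to regulate respiratory genes, and GABP and YY1 matches can share AAG.
Uqcrq, chr10:38089929-38090228, minus strand: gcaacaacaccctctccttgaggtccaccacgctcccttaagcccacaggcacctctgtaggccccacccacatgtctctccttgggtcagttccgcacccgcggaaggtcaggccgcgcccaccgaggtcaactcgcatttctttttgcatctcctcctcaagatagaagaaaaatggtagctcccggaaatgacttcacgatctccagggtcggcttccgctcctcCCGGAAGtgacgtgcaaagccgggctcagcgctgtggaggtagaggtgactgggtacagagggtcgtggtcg
Uqcrc2, chr1:184598990-184599289, plus strand: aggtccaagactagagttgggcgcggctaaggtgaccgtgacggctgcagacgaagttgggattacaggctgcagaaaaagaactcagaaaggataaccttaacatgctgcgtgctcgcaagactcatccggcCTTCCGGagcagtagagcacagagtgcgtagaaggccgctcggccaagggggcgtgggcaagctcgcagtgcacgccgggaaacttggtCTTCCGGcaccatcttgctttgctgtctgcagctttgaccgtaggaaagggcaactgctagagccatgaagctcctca
Atp5i, chr14:1464610-1464909, plus strand: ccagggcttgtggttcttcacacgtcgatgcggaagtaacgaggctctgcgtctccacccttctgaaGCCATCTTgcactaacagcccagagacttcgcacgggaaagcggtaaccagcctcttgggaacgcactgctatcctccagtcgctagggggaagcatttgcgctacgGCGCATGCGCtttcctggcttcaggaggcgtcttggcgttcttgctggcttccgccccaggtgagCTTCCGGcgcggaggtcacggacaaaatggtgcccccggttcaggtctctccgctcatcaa
Timmdc1, chr11:75734304-75734603, plus strand: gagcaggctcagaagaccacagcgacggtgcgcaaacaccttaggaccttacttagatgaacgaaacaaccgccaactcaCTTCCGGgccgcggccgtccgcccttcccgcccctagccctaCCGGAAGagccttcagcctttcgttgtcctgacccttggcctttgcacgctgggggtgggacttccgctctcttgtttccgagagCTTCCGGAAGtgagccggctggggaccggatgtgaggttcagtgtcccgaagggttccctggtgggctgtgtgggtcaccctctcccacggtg

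The GABP motif was present in 11 of the 34 member windows (32.4%) and in 8.75% of all 33469 windows of the table. The YY1 motif was found in 6 member windows (17.6%), against 3.17% of all windows, and the NRF1 core in 3 (8.82%), against 2.47%. Timmdc1 had 4 GABP matches, of which a pair overlapped on opposite strands. Uqcrc2, whose ratio went the other way from most members, had 2 GABP matches, and Uqcrq had 1. A match is a run of letters in the window and was not tested as a binding site.

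The first question was how the members behaved in FT against Sham. In each region the log2 fold change (log2FC) was fitted with edgeR on counts scaled by TMM, with the replicate number as a block, and a transcript was called when its log2FC reached 0.32 in either direction with an adjusted p no higher than 0.1. Every member passed the filter on low counts in all 25 regions, which gives 950 combinations of member and region. Of these, 760 had a log2FC above 0 (80.0%), against 50.6% over all transcripts tested. The median log2FC was 0.39 over the member combinations and 0.01 over all transcripts. The median over the members was above 0 in all 25 regions, from 0.16 in PAG to 0.82 in ILC (0.64 without the ILC pairs of replicates 1 and 3), while the median of all transcripts in a region lay between -0.05 and 0.05.

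Calls were fewer. Of the 950 combinations, 44 were called higher in FT, where 0.946% of all tests were, and 8 were called lower, where 0.825% were. They fell in 5 regions: Arc with 24 higher and 4 lower, mPoA with 11 and 3, raphe with 5 and 1, CGC with 3 higher and LC, the locus coeruleus, with 1 higher. The other 20 regions had none with edgeR. At an unadjusted p under 0.05, 273 combinations were higher and 29 lower over all 25 regions. Arc held 26 and 4 of these, and mPoA 14 and 3. The share of all transcripts at that threshold is not given, so these counts cannot be set against it. The transcripts called higher made up 13.7% of all those tested in Arc, 4.85% in mPoA, 3.08% in raphe, 0.389% in CGC and 0.0235% in LC, and those called lower 10.8% in Arc, 4.74% in mPoA and 3.51% in raphe. In ILC, 8 members were called higher without the pairs of replicates 1 and 3, against 2.09% of all transcripts in that fit. DESeq2, the tool the study used for the selection, called 143 combinations higher and 11 lower in 21 regions with a higher call, against 2.43% and 1.72% of all its tests. Because the Arc and mPoA fits have 2 complete pairs each, their fold changes rest on replicates 4 and 5. Leaving out replicate 4 or replicate 5, which leaves 23 regions, gave 3 combinations called higher and 0 lower in either case, against 0.0364% and 0.0502% of all tests higher. Leaving out replicate 1 gave 71 higher and 9 lower, against 1.54% and 1.56%.

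Replicate number separated the pairs more clearly than region did. For each pair, the median log2 ratio of FT to Sham over the 38 members was taken. Regions of a replicate number share their animals, so counts and SDs over regions do not measure spread between independent pools. In replicate 5 it was above 0 in 25 of 25 regions, with a median over regions of 0.77 (SD 0.13) and a range from 0.50 in PAG to 0.99 in Arc. In replicate 4 it was again above 0 in 25 of 25 regions, with a median of 0.44 (SD 0.23) and a range from 0.06 in MDT to 0.94 in VTA. Of the 22 pairs of replicate 3, 19 were above 0 (median 0.21), and of the 22 of replicate 1, 11 were above 0 (median 0.001). Over all tested transcripts the median was at most 0.024 in any replicate number.

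**Figure D1:**
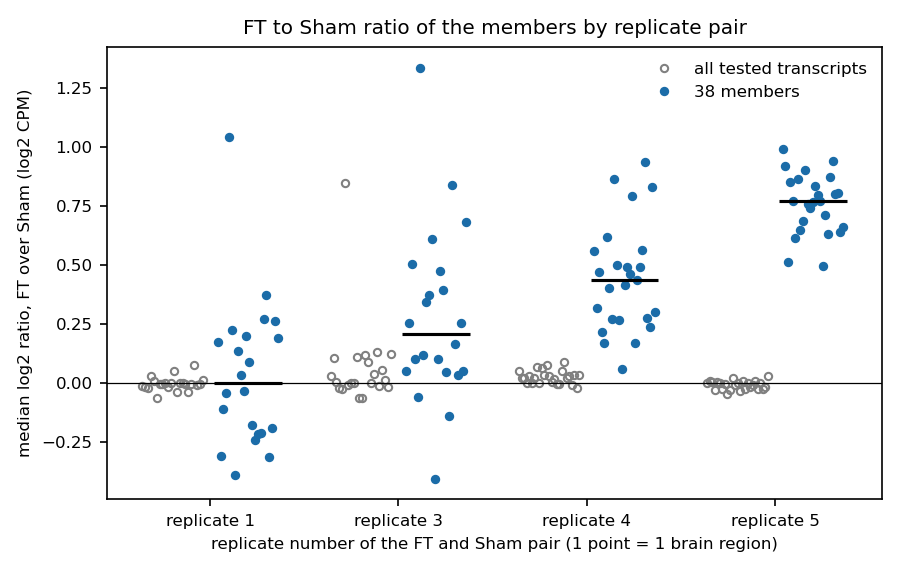
Median log2 ratio of FT to Sham over the 38 members (filled) and over all tested transcripts (open) for each replicate pair, with 1 point per brain region and a bar at the median over regions. All 25 member medians lie above 0 in replicates 4 and 5, while those of replicate 1 lie on both sides of 0; the open point at 0.85 in replicate 3 is ILC.

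The ILC pairs were the highest of replicates 1 and 3, with member medians of 1.04 and 1.34. All tested transcripts in that replicate 3 pair had a median of 0.85. Library measures moved with the replicate numbers as well. Median shares over the libraries of reads outside annotated features were 47.5% in FT and 41.1% in Sham of replicate 4, and 43.1% and 46.9% in replicate 5, while in replicate 1 they were 21.9% and 25.6%. The members took a median of 1.12% of reads in FT and 0.84% in Sham of replicate 4, 1.22% and 0.80% in replicate 5, 0.97% and 0.88% in replicate 3, and 1.31% and 1.18% in replicate 1. In replicate 3 the 50 most abundant transcripts took a median of 67.7% of reads in FT and 68.6% in Sham, against 28.2% to 37.5% elsewhere. The part of these measures in the member ratios was not tested.

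By complex, the ratio in replicates 4 and 5 was highest for complex I. Its 13 subunits had a median ratio of 0.75 in replicate 4 and 0.92 in replicate 5, with -0.02 in replicate 1 and 0.17 in replicate 3. The complex I assembly factors had 0.56 and 0.88 in replicates 4 and 5, and the import components 0.62 and 0.71. The ATP synthase differed between these replicates, with 0.21 and 0.78, and complex IV likewise, with 0.04 and 0.69. Complex III had -0.17 in replicate 4 and 0.34 in replicate 5, and complex II had -0.17 and 0.02. These medians hide unlike members, which are taken complex by complex below.

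Complex I subunits had the largest share of combinations above 0, although their medians spread more widely than those of complex IV or the assembly factors. All 13 had a median log2FC above 0 over the regions, from 0.30 for Ndufa2 to 0.93 for Ndufab1, and 300 of their 325 combinations were above 0. Ndufab1, the mitochondrial acyl carrier protein, showed the replicate dependence most clearly: its median ratio was -0.49 in replicate 1, -0.11 in replicate 3, 1.12 in replicate 4 and 2.43 in replicate 5. Its Sham level had a median over regions of 203 CPM in replicate 1 and 311 CPM in replicate 3, but 53.0 and 50.3 CPM in replicates 4 and 5. The FT medians in the same order were 164, 261, 126 and 302 CPM. Thus the lowest medians were those of Sham in replicates 4 and 5, the FT median of replicate 4 was next, and that of replicate 5 lay within the range of replicates 1 and 3.

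Ndufa7, Ndufs8, Ndufb4 and Ndufc1 were, with Ndufab1, the complex I subunits above 0 in all 25 regions. Ndufs8 and Ndufs7, which hold iron-sulfur clusters of the electron path, and Ndufv1, which binds NADH, had medians of 0.60, 0.59 and 0.54. Ndufs7 went against the replicate order of the group, with a median ratio of 1.34 in replicate 4 and -0.18 in replicate 5. Ndufb10 was above 0 in 88 of 94 pairs, the most of any member, with medians from 0.26 in replicate 1 to 0.83 in replicate 4. Of the assembly factors, Timmdc1 had a median of 0.46 and was above 0 in 25 regions, Ndufaf4 had 0.36 and was above 0 in 17, and Tmem126b had 0.25 and was above 0 in 20. Reads of Ndufb4 could be shared with a second transcript listed under the name NDUFB4, which had a median of 0.73.

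**Figure D2:**
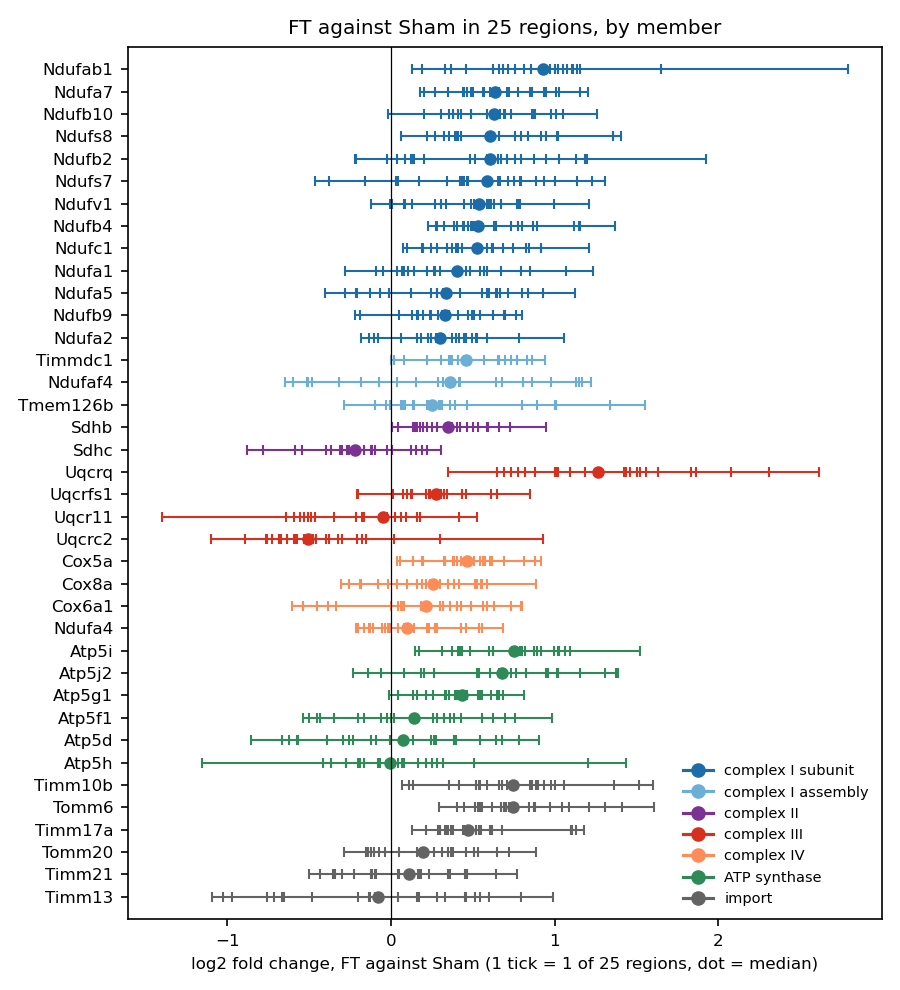
Log2 fold change of FT against Sham for each member, with 1 tick per region, a dot at the median over 25 regions and colours for the complexes. The 13 complex I subunits all have medians above 0, whereas complex III runs from Uqcrq at 1.27 to Uqcrc2 at -0.50.

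The members of complex II pointed in different directions. Sdhb, the iron-sulfur subunit of succinate dehydrogenase, had a median log2FC of 0.35 and was above 0 in 25 regions, while Sdhc, a membrane anchor of the same enzyme, had a median of -0.22 and was below 0 in 19. Sdhc was higher in FT in 16 of 22 pairs of replicate 1 and 18 of 22 of replicate 3. It was higher in 0 of 25 pairs of replicate 4 and 2 of 25 of replicate 5. The direction of Sdhc thus turned with the replicate number.

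Complex III held both ends of the set. Uqcrq, a small subunit near the ubiquinone-binding site, had the highest median log2FC of all members, 1.27, with a range from 0.35 in LC to 2.61 in mPoA. Uqcrc2, a core subunit of the matrix side, had the lowest, -0.50, and was below 0 in 22 regions, although it reached 0.93 in LC. Uqcrfs1, the Rieske iron-sulfur protein, had 0.28, and Uqcr11, a small subunit, had -0.05. Uqcrc2 was higher in FT in only 18 of 94 pairs, with median ratios between -0.70 and -0.36 in the 4 replicate numbers, and was the one member of the complex with the same sign in each of them below 0.

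For Uqcrq the size came mostly from replicate 4. Its median Sham level was 30.8 CPM in replicate 4, with a range over regions from 15.5 to 290.1 CPM, and 198 CPM in replicate 5. In replicates 1 and 3 the Sham medians were 484 and 672 CPM. The FT medians were 522, 744, 387 and 488 CPM in replicates 1, 3, 4 and 5. Hence the median ratio was 3.67 on the log2 scale in replicate 4 and 1.31 in replicate 5, but 0.14 and 0.24 in replicates 1 and 3. FT medians differed 1.92-fold between replicate numbers and Sham medians 21.8-fold.

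**Figure D3:**
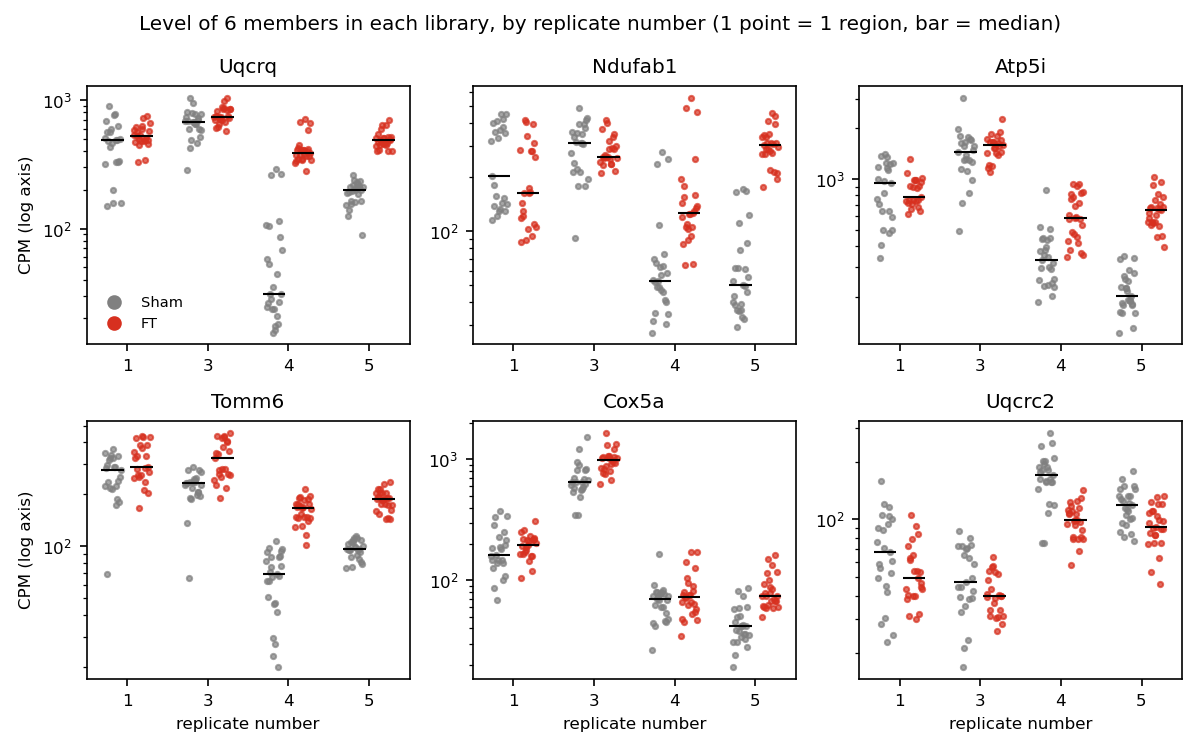
Level of 6 members in each library (CPM, log axis) by replicate number, with Sham in grey, FT in red, 1 point per region and a bar at the median. Sham libraries of replicates 4 and 5 lie low for Uqcrq, Ndufab1, Atp5i and Tomm6, Cox5a lies highest in replicate 3 in both groups, and Uqcrc2 lies lower in FT than in Sham in every replicate number.

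Complex IV had the smallest medians after complex II and III. Cox5a, a subunit of the matrix side, had 0.46 and was above 0 in 25 regions, Cox8a had 0.26, Cox6a1 had 0.22, and Ndufa4 had 0.10 and was above 0 in 15 regions. In the ATP synthase, Atp5i and Atp5j2, which are subunits e and f of the membrane part, had medians of 0.75 and 0.68. Atp5g1, a precursor of the c ring, had 0.44 and was above 0 in 24 regions. Subunits of the stalks were lower: Atp5f1 (subunit b) had 0.14, Atp5d (delta) had 0.07 and Atp5h (subunit d) had 0.00. Atp5i had median ratios of 0.76 and 1.58 in replicates 4 and 5 and -0.28 in replicate 1.

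Among the import components, Timm10b, a small chaperone of the intermembrane space, and Tomm6, a small subunit of the TOM complex, had the highest medians, 0.75 and 0.74, and both were above 0 in 25 regions. Timm10b was counted at a low level, with median Sham levels between 1.06 and 4.72 CPM, and a second transcript is listed under the name TIMM10B. Timm17a, part of the TIM23 channel, had 0.47 and was above 0 in 25 regions. Tomm20, the receptor for presequences, had 0.20, Timm21 had 0.11 and Timm13, another small chaperone, had -0.08. Timm13 was higher in FT in 19 of 22 pairs of replicate 3 and in 2 of 25 of replicate 5.

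Levels of the members moved with replicate number in either group. In Sham, the median level over regions differed between the highest and lowest replicate number by a median of 3.67-fold over the members and by more than 2-fold for 36 of 38. In FT the median was 2.42-fold, with 23 of 38 above 2-fold. Replicate 3 was the highest for 21 members in Sham and 20 in FT, among them Ndufb2, Atp5d, Timm13, Cox6a1, Cox8a and Cox5a, each with more than 10-fold in either group. Cox6a1 had Sham medians of 425, 2265, 120 and 129 CPM in replicates 1, 3, 4 and 5, and FT medians of 422, 3707, 138 and 135 CPM. Timm17a had the reverse order, with its lowest medians in replicate 3, 73.2 CPM in Sham and 74.0 CPM in FT. These levels are TMM-scaled. As plain shares of reads, the members together took a median of 0.97% in FT and 0.88% in Sham of replicate 3. That was below the 1.31% and 1.18% of replicate 1.

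The raphe, the main source of serotonin neurons, had the most members called among regions with at least 3 pairs, and its libraries are shown one by one. Atp5j2 had 816, 1160, 984 and 831 CPM in FT replicates 1, 3, 4 and 5, and 381, 618, 243 and 358 CPM in Sham. Every FT library was above every Sham library, and the log2FC was 1.31 ± 0.23 (SE). Ndufa5, a complex I subunit of the peripheral arm, had 479, 624, 422 and 470.3 CPM in FT and 293, 408, 200.1 and 267 CPM in Sham. Here too the FT libraries lay above all Sham libraries, with a log2FC of 0.80 ± 0.18.

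Atp5i had 901, 2446, 838 and 752 CPM in FT and 565, 1569.9, 238.2 and 341 CPM in Sham. FT was higher in each pair, with a log2FC of 1.06 ± 0.25, although the groups overlapped because both libraries of replicate 3 were high. Tmem126b had 66.8, 30.6, 138 and 129 CPM in FT and 46.9, 28.1, 49.8 and 65.8 CPM in Sham, with the largest pair differences in replicates 4 and 5 and a log2FC of 0.80 ± 0.22. Ndufaf4 had 26.9, 20.4, 48.6 and 48.0 CPM in FT and 12, 10.3, 22.9 and 20.4 CPM in Sham. It was higher in FT in every pair, with a log2FC of 1.13 ± 0.16. Uqcrc2 was the one member called lower, with 41.5, 30.6, 79.6 and 94.6 CPM in FT and 57.6, 44.2, 124 and 148 CPM in Sham. FT was the lower library in each of the 4 pairs, and the log2FC was -0.58 ± 0.15.

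**Figure D4:**
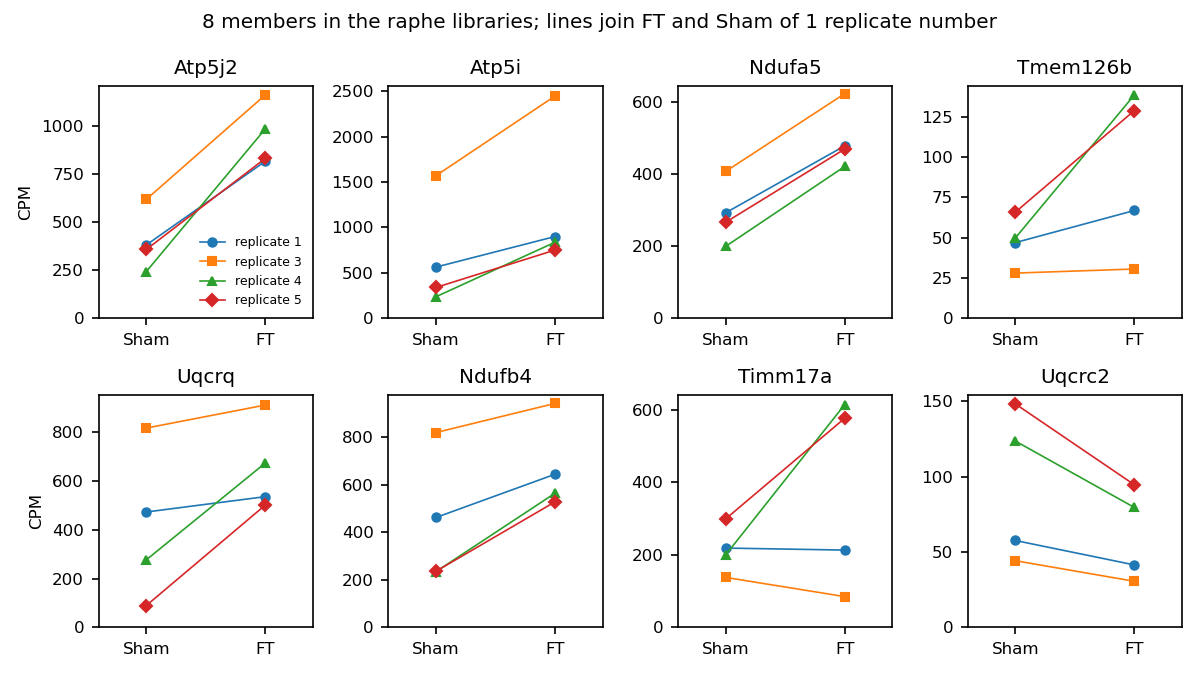
CPM of 8 members in the 8 raphe libraries, with lines that join the FT and Sham libraries of a replicate number. The 4 lines go up from Sham to FT for Atp5j2, Atp5i, Ndufa5, Tmem126b, Uqcrq and Ndufb4 and down for Uqcrc2, whereas those of Timm17a go up in replicates 4 and 5 and down in replicates 1 and 3.

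Among the members not called in raphe, Uqcrq had 535, 909.8, 673 and 501 CPM in FT and 472, 816, 276 and 89.5 CPM in Sham, a log2FC of 1.01 ± 0.37 with FT higher in 4 of 4 pairs. Ndufb4 had 644, 942, 564 and 528 CPM in FT and 462, 819, 235 and 236 CPM in Sham, a log2FC of 0.78 ± 0.23. For both, the pairs of replicates 4 and 5 differed by more than those of replicates 1 and 3. Timm17a had 213, 85.0, 614 and 577 CPM in FT and 219, 138, 199.7 and 299 CPM in Sham. It was higher in FT in 2 of 4 pairs, with a log2FC of 0.47 ± 0.34.

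Ndufab1 in raphe had 244, 321, 465.9 and 204 CPM in FT and 433, 453, 262 and 55.1 CPM in Sham, so 2 pairs went each way (log2FC 0.33 ± 0.41). Ndufa7 had a log2FC of 0.71 ± 0.26, Atp5f1 of 0.62 ± 0.18 and Ndufa2 of 0.59 ± 0.18, each higher in FT in 4 of 4 pairs. Tomm6 had 0.52 ± 0.23, Timm10b 0.52 ± 0.28 and Cox5a 0.47 ± 0.24, with FT higher in 3 of 4 pairs. Sdhb had 0.16 ± 0.20, Timmdc1 0.08 ± 0.21 and Atp5h -0.16 ± 0.20, all within 1 SE of 0. Sdhc (-0.36 ± 0.20) and Timm13 (-0.65 ± 0.22) were higher in FT in 1 of 4 pairs.

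In 3 of the other regions with calls, the member with the highest log2FC is shown. In Arc, Ndufab1 had 233 and 322 CPM in FT replicates 4 and 5 and 32.3 and 48.5 CPM in Sham, a log2FC of 2.79 ± 0.17 with no overlap between the groups. In mPoA, Uqcrq had 468 and 589.8 CPM in FT replicates 4 and 5 and 36.6 and 200.2 CPM in the paired Sham libraries, a log2FC of 2.61 ± 0.40. Yet the unpaired mPoA Sham libraries of replicates 1 and 3 had 399 and 675 CPM, on either side of the FT levels. In LC, Tmem126b had 94.6, 48.4, 115 and 115 CPM in FT and 36.4, 14.3, 40.0 and 38.4 CPM in Sham, with every FT library above every Sham library and a log2FC of 1.55 ± 0.18.

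Other transcripts of the respiratory machinery on the same study list, which share its selection, are given beside the members. A set of 16 further nuclear-encoded transcripts, among them assembly factors of complex IV such as Coa3, Cox14 and Sco2, had 331 of 400 combinations above 0 and a median log2FC of 0.46, with 20 called higher and 1 lower. Its median ratios were 0.07, 0.14, 0.66 and 0.75 in replicates 1, 3, 4 and 5. The 8 transcripts encoded in mitochondrial DNA went the other way. They had 64 of 200 combinations above 0 and a median of -0.29, with 2 called higher, both MT-ATP8, and 1 lower, ND3. DESeq2 called 5 of these combinations higher and 28 lower, and in the set of 16 it called 62 higher and 1 lower.

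MT-CO2 and MT-CO3, subunits of complex IV, had medians of -0.33 and -0.34, and MT-ND5, a subunit of complex I, had -0.51. MT-ATP8 differed, with a median of 0.43 and ratios of -1.39, -0.62, 0.85 and 1.78 in replicates 1, 3, 4 and 5. The mitochondrial list made up a median of 3.02% of reads in FT and 4.38% in Sham of replicate 4, and 2.86% and 3.49% in replicate 5. Marker lists of brain cell types had medians of 0.05 for oligodendrocytes, -0.19 for astrocytes, -0.17 for neurons and 0.11 for microglia. These markers came from the same study list and share its selection, so they are not neutral measures of cell content in FT against Sham. The neuron list had median ratios of 0.30, 0.14, -0.32 and -0.38 for replicates 1, 3, 4 and 5, and its part in the member ratios was not tested.

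The second question was how the members differed between brain regions, a contrast that did not enter their selection and could be tested. A single edgeR fit over 192 libraries compared each region with the mean of the other 24, with a term for each treatment and replicate number. Of 950 combinations, 93 were called above the other regions and 83 below, while 15.1% of all tests were called above and 13.2% below. Over all regions, the members were thus called less often than transcripts at large in both directions. At least 1 region was called for 37 of 38 members, and Tomm6 was called in none. The share of all transcripts called in at least 1 region is not given, so this count cannot be set against it. Each region is set against others of the same treatment and replicate number, because levels moved with replicate number.

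The brainstem regions Nts, LC and raphe stood at the top. Nts had 20 of 38 members called above and 0 below, against 21.7% of all transcripts called above there. LC had 18 above and 0 below, against 25%, and raphe had 15 above and 0 below, against 21.8%. Their member medians were 0.34, 0.30 and 0.23 on the log2 scale, and the member effect was above 0 for 38, 33 and 35 of 38. MDT followed with 7 above and 0 below, against 12% of all transcripts above. These 3 brainstem regions held the highest level of 23 of the 38 members.

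**Figure D5:**
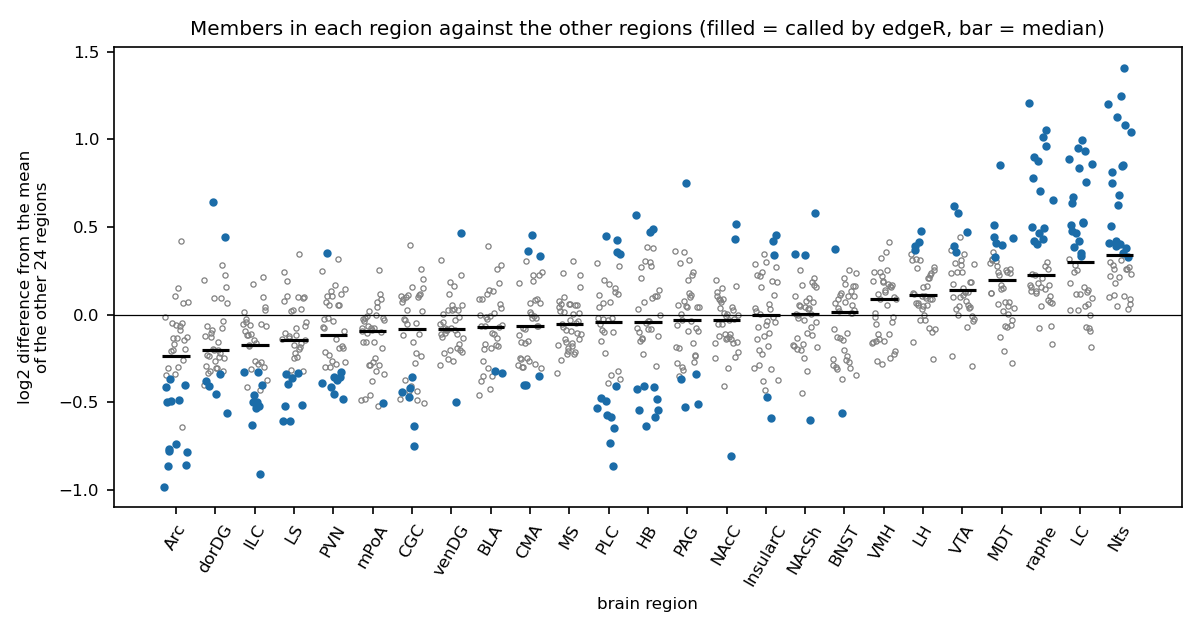
Log2 difference of each region from the mean of the other 24 for the 38 members, with filled points for members called by edgeR and a bar at the median. Nts, LC and raphe have only positive calls, with medians of 0.34, 0.30 and 0.23, and Arc has only negative calls, with a median of -0.23.

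The complex IV and complex I subunits were the highest there, with medians of 0.52 and 0.42 in Nts, 0.44 and 0.42 in LC, and 0.60 and 0.41 in raphe. Complex III was near 0 in LC and raphe (0.00 in each) although Uqcrq was called above in all 3. Ndufab1, Ndufs7, Ndufs8, Ndufv1, Ndufa5, Ndufb2 and Ndufb10 of complex I were called above in each of the 3 as well, as were Cox5a, Cox6a1, Atp5d, Atp5j2, Timm10b and Timm13. Markers of cell types also differed in these regions, though not in these alone. In BNST, the bed nucleus, 9 of 10 oligodendrocyte markers were above (median 0.88), with 1 member above and 1 below, against 12.5% and 9.11% of all transcripts. In LH, 10 of 10 were above (median 1.15), with 4 members above and 0 below, against 11.4% of all transcripts above. In VTA, 9 of 10 were above (median 0.86), with 5 members above and 0 below, against 13.2%. In venDG, the ventral dentate gyrus, 9 of 10 were below (median -0.86), again with 1 member above and 1 below, against 12.2% and 12.9% of all transcripts. In CGC, 9 of 10 were below (median -1.07), with 6 members below and 0 above, against 16.6% of all transcripts below. In dorDG, 9 of 10 were below (median -1.05), with 2 members above and 5 below, against 21.4% and 24.4%. Of 10 oligodendrocyte markers, 10 were above in Nts (median 1.35), 9 in raphe (1.21) and 8 in LC (0.57). In LC, 4 of 5 choroid plexus markers were above, with a median of 4.60. In MDT, 8 of 10 oligodendrocyte markers were above (median 0.45). Of 8 neuron markers, 5 were above in MDT (median 0.60), 5 in Nts (0.54) and 5 in raphe (0.42), with 1 below in MDT and 3 below in Nts. In LC, 2 neuron markers were above and 2 below (median -0.01). The part of these markers in the member differences was not tested.

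Timm10b had the widest spread over regions, from -0.91 in ILC to 1.41 in Nts. In Nts it had 7.06, 12.2 and 7.92 CPM in FT replicates 1, 4 and 5 and 8.18, 7.31 and 4.99 CPM in Sham, where the other regions had medians of 6.36, 2.51, 4.95, 4.60, 0.94 and 2.66 CPM in the same order. All 6 Nts libraries were above the median of the other regions, and the difference was 1.41 ± 0.19 (SE; adjusted p = 3.1e-10). Its ILC difference was -0.86 without the Sham ILC libraries of replicates 1 and 3. Ndufs7 had 220.0, 183 and 168 CPM in FT and 399, 243 and 170.0 CPM in Sham of Nts. The other regions had medians of 247, 76.0 and 106 CPM in FT and 166, 32.6 and 109 CPM in Sham. The Nts library was above that median in 5 of 6 cases, and the difference was 1.248 ± 0.20 (adjusted p = 4.7e-08).

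Atp5d was highest in raphe, by 1.21 ± 0.20 (adjusted p = 2.2e-07). Its raphe libraries had 151, 801, 93.0 and 30.3 CPM in FT and 449, 895, 143 and 35.04 CPM in Sham, against medians elsewhere of 106, 859.6, 18.1, 29.4, 94.7, 501, 23.4 and 33.2 CPM. The excess was large in both libraries of replicate 4 and in Sham of replicate 1 and small in both of replicate 5. Cox5a was above in Nts by 0.81 ± 0.15 (adjusted p = 1.0e-06), and Uqcrq by 1.04 ± 0.21 (adjusted p = 1.6e-05). In the Sham library of replicate 4, Uqcrq had 290.1 CPM in Nts and a median of 30.7 CPM elsewhere. Without replicate 4 the Uqcrq difference was 0.37 and was not called.

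The brainstem counts depended on replicate 4. Without it, 8 members were called above in Nts, 11 in LC and 8 in raphe, with 0 below in each, against 14.8%, 19.6% and 15.7% of all transcripts. The member medians were then 0.25, 0.19 and 0.20. In Sham libraries alone, 13, 12 and 13 members were above, against 16.9%, 20% and 20% of all transcripts, with 4 below in LC and 1 in raphe, against 14.6% and 13.6% of all transcripts below. In FT libraries alone 22, 15 and 13 were above and 0 below, against 16.3%, 18.3% and 13.8%. The medians of the 3 regions lay between 0.17 and 0.42 in both. In a fit with no replicate term, 2, 3 and 1 of 38 members were above in Nts, LC and raphe, with 0 below. All transcripts called above were then 10.9%, 12.9% and 10.8%, so the members were called less often than transcripts at large. The member medians in that fit were 0.13, 0.24 and 0.20.

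Arc stood lowest, with 13 members called below and 0 above, against 14.1% of all transcripts called below there. Its median was -0.23, and 33 of 38 members were below 0. All 4 complex IV subunits were called below: Cox5a at -0.86, Cox6a1 at -0.78, Cox8a at -0.77 and Ndufa4 at -0.49. Cox5a had 164, 631, 34.7 and 49.7 CPM in FT replicates 1, 3, 4 and 5 and 26.7 and 19.1 CPM in Sham replicates 4 and 5. It ranked last of 25 regions in each of the 4 libraries of replicates 4 and 5, and the difference had an adjusted p of 1.8e-05. Atp5d in Arc was lower by 0.98 on the log2 scale (-0.98 ± 0.29, adjusted p = 0.0057), and was below the median elsewhere in all 6 libraries. Without replicate 5 its difference was -0.86 and was not called.

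Of 10 oligodendrocyte markers 8 were below in Arc, with a median of -0.73, and 5 of 8 neuron markers were below, with a median of -0.56. Their part in the member values was not tested. ILC had 10 members below and 0 above, against 15.5%, with a median of -0.17. Without its Sham libraries of replicates 1 and 3, which were chosen for leaving out after the data were seen, 1 member was below and 0 above, against 14.4% of all transcripts below, with a median of -0.04. Of 10 oligodendrocyte markers, 9 were below in ILC, with a median of -0.91. PLC, the prelimbic cortex, had 4 above and 9 below, against 17.5% and 22.7%, and its 10 oligodendrocyte markers had a median of -1.23, lower than in Arc. MS, the medial septum, and VMH had no member called.

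Members were also called below the others in LS, the lateral septum (8 below and 0 above, against 13% of all transcripts below), in PVN (8 below and 1 above, against 13.1% below and 18.5% above) and in HB, the habenula (8 below and 3 above, against 14.3% and 22.3%). Choroid plexus markers were above in the same regions, 5 of 5 in LS (median 2.48), 4 of 5 in PVN (5.06) and 4 of 5 in HB (3.82). They were also above in MS, 5 of 5 (median 1.73), where no member was called. Both blood markers were above in HB (median 1.78) and in PVN (0.72). Of 8 neuron markers, 5 were below in PVN (median -0.47), 5 in HB (-0.36) and 3 in LS (-0.35). The part of these lists in the member values was not tested. HB held the lowest value of Atp5j2 (-0.54), Uqcrc2 (-0.54), Timm21 (-0.58), Tomm20 (-0.48) and Timm17a (-0.41). NAcSh, the shell of the nucleus accumbens, held the highest value of Uqcr11 (0.58) and Atp5g1 (0.35).

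Ndufaf4 did not follow the brainstem pattern. It was highest in MDT, by 0.85 ± 0.17 (adjusted p = 1.6e-05), and lowest in HB, at -0.64 ± 0.20 (adjusted p = 0.0066). In MDT it had 60.5, 33.8, 82.1 and 98.6 CPM in FT against medians elsewhere of 18.8, 11.3, 44.5 and 48.7 CPM. In Sham it had 29.9, 13.8, 51.7 and 27.9 CPM against 28.1, 13.0, 31.2 and 23.2 CPM. The excess was thus clear in the 4 FT libraries and small in 3 of 4 Sham libraries, and in Sham libraries alone the difference of 0.36 was not called. Sdhc varied least among the members with the widest range in their complex, from -0.52 in ILC to 0.31 in MS, and its ILC difference was -0.29 and not called without the Sham ILC libraries of replicates 1 and 3.

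As a description over the 25 regions, the effects of any pair of members had a median Pearson r of 0.39 over 703 pairs, and 84.9% of pairs were above 0. Pairs within a complex had a median r of 0.50 over 124 pairs, and pairs across complexes 0.35. The points share libraries, depth and the punches themselves, so no test was made.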

How the data were processed

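RNA from pooled punches of 25 brain regions was sequenced as 76 bp paired-end reads in 98 FT and 98 Sham libraries. The labels name polyA RNA, whereas the kit named there is for total RNA. The authors aligned reads with STAR to rn5 and counted them per Ensembl transcript with HTSeq, checking quality with FastQC, and deposited counts that are not normalized; versions are not given in the sources used here. Reads assigned to no transcript stayed out of library sizes. The members, the complexes and the other gene lists were chosen with earlier results of these data known. Groups, regions and replicate numbers came from the labels.

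Calls in all tests across transcripts used edgeR 4.0.16 (R 4.3.3) quasi-likelihood fits on TMM-scaled counts after filterByExpr (minimum count 10), with Benjamini-Hochberg adjustment over all transcripts tested in a region or contrast, an adjusted p of at most 0.1 and an absolute log2 difference of at least 0.32. FT was compared with Sham in each region with the replicate number as a block, since the study processed FT and Sham libraries of a number in parallel. Same-numbered libraries deviated together, with a median r of 0.69 over regions and r from -0.08 in Arc to 0.79 in CMA, the centromedial amygdala. Each region was compared with the mean of the other 24 in a fit with 8 terms for treatment and replicate number. Pair ratios are differences of log2 CPM (TMM, prior count 2). P-values measure the spread left between libraries after the block or the 8 terms. In the region fit these terms take up differences between pools that the regions share. Between 4586 and 50893913 reads per library limit the precision of each value, and no counting interval is given. Nts replicate 3 and CGC replicate 1 pairs were left out.

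Medians and ranges are given for all members. Library values in raphe, the region with the most members called among those with at least 3 pairs, are given for members that the study's text names and for those with the highest and lowest median log2FC in each complex; between regions, for the member of widest range in each complex. Ndufaf4 in raphe, the members shown in other regions with calls and those shown by level in each replicate number were chosen after their values were seen. Figures used matplotlib 3.10.9. Alternatives were DESeq2 1.42.0, no replicate block, other size factors, no filter on low counts, other libraries, a prior count of 0.5 and leaving out each replicate number. Simulated counts without a replicate effect were put through 3 fits: raphe FT against Sham with edgeR and DESeq2, and raphe against the other regions with edgeR. Of transcripts changed by 1 on the log2 scale, these called 43 of 189, 55 of 200 and 172 of 189. Unchanged transcripts called were 3, 8 and 13. The simulated spread between libraries was capped and the same for all transcripts, so these counts need not hold for the data. The other steps were not tested in this way. dorCA1 and venCA1 were not analysed here.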

Additional observations from a re-analysis of the deposited data

Results flagged for a closer look

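The summed level of the 38 members stood apart in 4 of 48 groups of 4 or more libraries, by a test on the gap to the nearest library that chance passes in about 1 group in 20. Each time the high library was FT replicate 3. The sum was 22232 CPM in LC, with the other FT libraries between 11044 and 11964 CPM, and 21088 CPM in Nts, with the others between 11584 and 12875 CPM. It was 19845 CPM in PLC, with the others between 8803 and 9635 CPM, and 20127 CPM in VTA, with the others between 10324 and 11697 CPM. These sums are CPM after TMM scaling. As plain shares of reads, the members took 0.96% in FT replicate 3 of LC, 0.83% in Nts, 0.98% in PLC and 0.77% in VTA. The FT libraries of replicate 1 had 1.16%, 1.18%, 0.96% and 1.11% in the same order, so the high sums do not mean high read shares. In replicate 3 the 50 most abundant transcripts took a median of 67.7% of reads in FT libraries.

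The median ratio of the complex II subunits was below 0 in all pairs of InsularC, the insular cortex, where the highest of the 4 values was -0.053 and the lowest -0.50, and was above 0 in all pairs of 1 other region. The difference between these regions was not tested.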

How the results depend on the processing

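The median log2FC over members and regions, 0.39, lay between 0.22 and 0.48 under every alternative. In FT against Sham, 44 combinations were called higher and 8 lower. DESeq2 called 143 higher, no filter on low counts gave 146 higher and 14 lower, and an adjusted p of 0.05 gave 28 and 4. Shares of all transcripts are not given for the fit without the filter or for the stricter threshold. Leaving out each replicate number in turn gave between 3 and 71 higher and between 0 and 9 lower, with the fewest without replicate 4 or replicate 5 and the most without replicate 1. The median ratio of replicate 5 was 0.62 in place of 0.77 with total counts in place of TMM. Between regions, 93 were above and 83 below, and Sham libraries alone gave 49 below. Leaving out a replicate number kept both counts within 1.5 times. Without the ILC pairs of replicates 1 and 3, chosen after the data were seen, 52 were called higher in FT, and without the Sham libraries of those pairs 90 were above and 78 below the other regions. Shares of all transcripts over all regions are not given for these alternatives between regions.

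The replicate block mattered most. Without the replicate block edgeR called 0 combinations higher and 0 lower in FT, and 718 of 950 log2FC values were above 0. At an unadjusted p under 0.05, 63 were higher and 8 lower, with no share of all transcripts given beside them. Without this pairing term between regions, 10 were above and 16 below, and Cox5a in Nts turned to -0.61. The share of all transcripts over all regions is not given for that fit. In Nts, LC and raphe, 2, 3 and 1 members were then above, against 10.9%, 12.9% and 10.8% of all transcripts. For members named in raphe, all 252 values under the alternatives kept their direction. For those named between regions, 180 values kept direction and side of the threshold, 12 lost the call, 3 gained it and 1 reversed, with 7 of the 12 and the reversal in the fit without the block.

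The Sham ILC library of replicate 3, with 543403 reads on transcripts, limits what ILC can show. All 38 members passed the filter in all 25 regions, yet some were near the floor in single libraries. Timm10b and Atp5h had 0 CPM in their lowest Sham library of replicate 3. The Sham median of Timm10b in replicate 4 was 1.06 CPM.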

Other observations

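Enzymes of the mitochondrial matrix on the same study list, 9 transcripts that share its selection, had 169 of 225 combinations of transcript and region above 0 in FT against Sham and a median log2FC of 0.36, with 8 called higher and 2 lower. Choroid plexus markers had 28 of 109 combinations above 0 with a median of -0.54, blood markers had 21 of 50 with a median of -0.06, and region markers had 90 of 157 with a median of 0.15. These marker lists share that selection as well. Choroid plexus medians in single regions ran from -3.52 to 1.13, a wider spread than for any other list.

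The pairs left out of the fits had member medians of 6.0 in Nts replicate 3, whose Sham library had 4586 reads on transcripts, and -0.42 in CGC replicate 1.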
